A study of Mus musculus with 18 samples.

Results

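The mRNAs of the adult mouse haemoglobin chains are described here through the 5-methylcytosine (m5C) sites listed for them in 9 libraries of bisulfite-treated RNA. The 4 genes were Hbb-bs and Hbb-bt, which encode the adult beta chains, and Hba-a1 and Hba-a2, which encode the alpha chain. A site was taken as a member when it fell, on the transcribed strand, in an exon of the RefSeq transcript of one of these genes on mm10. This gave 31 sites out of 18059 mRNA sites and 25890 sites in all, in 2 of the 4 genes, out of 21013 protein-coding genes annotated. The genes were chosen by their listed sites, that is by the presence, position and score of sites in these same libraries, so all values below are descriptions and none is a test.

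RNA came from primary cortical neurons of C57BL/6 mouse fetuses at embryonic day 18, cultured after dissociation of the cortex. Control neurons were untreated, while the OGD/R 1.5 h and OGD/R 3 h neurons were kept without glucose under hypoxic gas for 1.5 h or 3 h and then returned to normal medium and incubation for 24 h. Each group had 3 bisulfite libraries, and the protocols of culture, rRNA depletion and bisulfite treatment were the same for all 3 groups. In control and OGD/R 3 h, replicates differed in coverage by less than the sampling noise in the part of a supplementary table where coverage was held, so the 3 libraries of a group were counted as 1 sample, and OGD/R 1.5 h was treated alike. The study's supplement speaks of sequencing pool replicates and does not say what was pooled. The labels do not say whether the libraries of a group came from separate cultures. Differences between groups are therefore given without a p-value, since nothing measures the spread between cultures.

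Haemoglobin carries oxygen in red blood cells and is built from alpha and beta chains, each holding a haem group. Its mRNAs are made in great amount by erythroid precursors and remain in young red blood cells after the nucleus is lost, and low amounts have also been described in some neurons. The adult beta genes lie side by side in the beta-globin cluster and the adult alpha genes in the alpha-globin cluster, and each pair arose by gene duplication, so that its transcripts are nearly alike. In RNA bisulfite sequencing unmethylated cytosine is converted and read as thymine, while m5C is read as cytosine. A cytosine that is not converted for another reason is read in the same way.

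The 5′ ends of the beta transcripts are shown first, because both carried sites there. Listed cytosines of OGD/R 3 h are in capitals and all other bases in lower case, and the sequences were read 5′ to 3′ from mm10 on the minus strand.
Hbb-bs, chr7:103827899-103827928: caCatttgCttCtgaCatagttgtgttgaC
Hbb-bt, chr7:103813894-103813923: ttaCgtttgCttCtgattCtgttgtgttga
In this window, 5 of 6 cytosines were listed in Hbb-bs and 4 of 4 in Hbb-bt.

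The start codon regions of the 4 transcripts are shown next, with the atg beginning at base 10 of each window, since Hbb-bs alone had sites there. The alpha transcripts are on the plus strand.
Hbb-bs, chr7:103827855-103827884: aCagaCatCatggtgCaCCtgaCtgatgCt
Hbb-bt, chr7:103813849-103813878: acagacatcatggtgcacctgactgatgct
Hba-a1, chr11:32283698-32283727: gaagaaaccatggtgctctctggggaagac
Hba-a2, chr11:32296515-32296544: gaagaaaccatggtgctctctggggaagac
All 8 cytosines of the Hbb-bs window were listed, and 0 of the same 8 cytosines in Hbb-bt, whose bases are identical here. The windows of Hba-a1 and Hba-a2 are also identical to each other and had 0 of 6 cytosines listed.

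The last windows show where the sites of Hbb-bs ended, inside the coding sequence, and the same bases of Hbb-bt.
Hbb-bs, chr7:103827814-103827843: tgtCtCtggCCtgtggggaaaggtgaacgc
Hbb-bt, chr7:103813808-103813837: tgtctctggcctgtggggaaaggtgaacgc
The first 4 cytosines of this Hbb-bs window were listed and the last 2 were not.

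Sites in haemoglobin mRNAs were found in the OGD/R 3 h libraries and in no library of the other groups. Hbb-bs (gene 100503605, chromosome 7, 103826523 to 103827928) had 25 sites in replicate 1, 25 in replicate 2 and 25 in replicate 3 of OGD/R 3 h. It had 0 sites in each of the 3 control and each of the 3 OGD/R 1.5 h libraries. Hbb-bt (gene 101488143, chromosome 7, 103812524 to 103813923) had 6 sites in each OGD/R 3 h library and 0 in each of the other 6 libraries. The groups thus did not overlap for either beta gene, and the same 25 and 6 positions were listed in all 3 libraries. Of 2607 genes with a site in any library, 279 (10.7%) had sites in the OGD/R 3 h union and in neither other group. Of 479 genes with at least 5 sites in OGD/R 3 h, 22 (4.59%) had all of them called in all 3 libraries.

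Hba-a1 (gene 15122, chromosome 11, 32283672 to 32284486) and Hba-a2 (gene 110257, chromosome 11, 32296492 to 32297310) had 0 sites in all 9 libraries. Their transcripts hold 175 and 176 cytosines, which is more than the 160 of Hbb-bs and the 153 of Hbb-bt. The files hold sites only where the level reached 0.1 and the coverage 10. An unlisted cytosine may be unmethylated, methylated below that level or covered too little, and 0 sites give no upper limit on the level. In RNA of whole cultures, fewer cells with a haemoglobin mRNA and less of it per cell cannot be told apart.

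Presence in OGD/R 3 h alone was not rare among genes. Of 2607 genes with a site in any library, 279 (10.7%) had sites in OGD/R 3 h and in neither of the other groups, and 455 (17.5%) had sites in OGD/R 3 h and none in control. Among the 479 genes with at least 5 sites in OGD/R 3 h, 27 (5.64%) had no site in either other group. Of the 18059 mRNA sites, 6023 (33.4%) were listed in OGD/R 3 h only. The contrast was used to choose the genes, so nothing is read from the count of 2 of 4. Each OGD/R 3 h library also listed more sites, 7266 to 7772 against 5907 to 6254 in control and 5423 to 5745 in OGD/R 1.5 h. These mapped to fewer genes, 1107 to 1164 against 1324 to 1401 in control and 1265 to 1271 in OGD/R 1.5 h. Read depth is not known, and the part of the larger number of sites in the presence of haemoglobin sites was not tested.

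**Figure D1:**
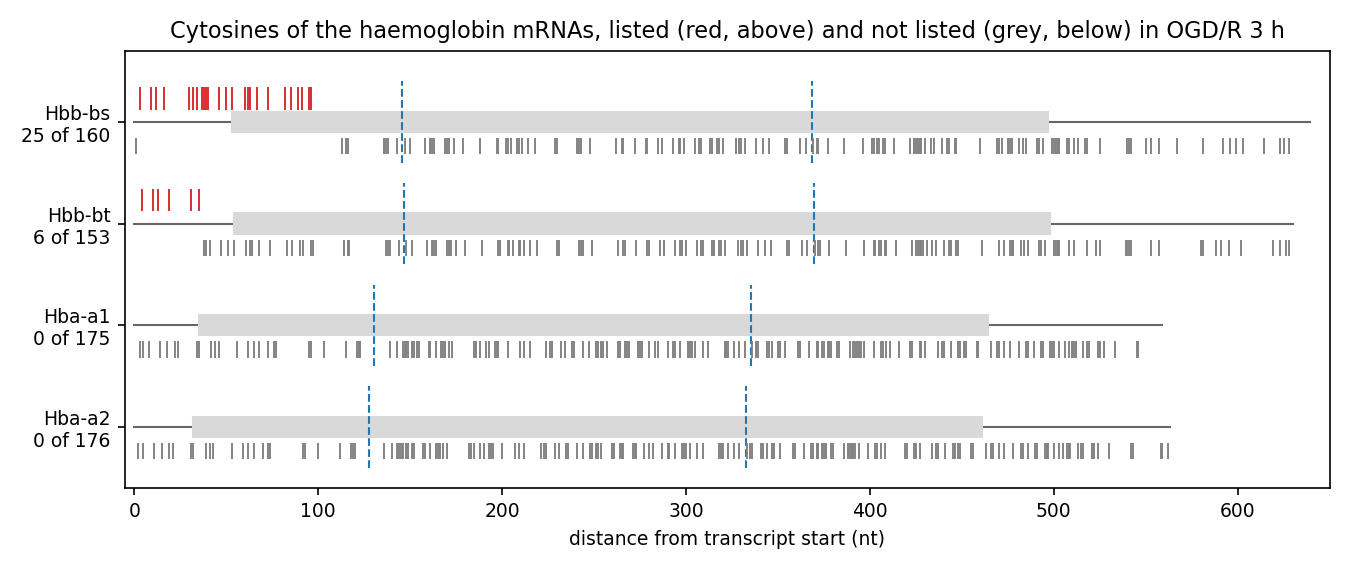
Cytosines along the 4 haemoglobin transcripts in OGD/R 3 h, by distance from the transcript start in nt. Red ticks above each line are listed sites (union of 3 libraries), grey ticks below are cytosines not listed, grey boxes are coding sequences and dashed blue lines are exon borders. The 25 sites of Hbb-bs and the 6 of Hbb-bt lie within the first 96 nt, and the alpha transcripts have none.

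In both beta transcripts the sites formed 1 stretch at the 5′ end without a gap. In Hbb-bs they ran from base 3 to base 96 of the transcript, over 94 nt, and all 25 of the 25 cytosines in this stretch were listed. In Hbb-bt they ran from base 4 to base 35, over 32 nt, and all 6 of 6 cytosines were listed. Within the stretches, the step from one listed cytosine to the next was 1 to 14 nt in Hbb-bs and 3 to 12 nt in Hbb-bt, so the spacing followed that of the cytosines themselves. The plot of cytosines along the transcripts shows both stretches against the unlisted remainder.

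Outside these stretches no cytosine was listed. In Hbb-bs the cytosine at base 1 was not listed, and neither were the 134 cytosines after the stretch, of which the first is at base 113. In Hbb-bt the 147 cytosines after base 35 were not listed, beginning with the one at base 38. Over the whole transcript, 15.6% of the cytosines of Hbb-bs and 3.92% of those of Hbb-bt were listed. All sites lay in exon 1, where they made up 25 of 33 cytosines (75.8%) in Hbb-bs and 6 of 30 (20.0%) in Hbb-bt. Exon 2 held 59 cytosines in each gene and exon 3 held 68 and 64, with 0 listed.

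The stretch of Hbb-bs crossed the start codon. Of its sites, 14 lay in the 5′ untranslated region, which holds 15 cytosines, and 11 in the coding sequence, the last at base 43 of the coding sequence. In codons, 3 of the 11 coding sites were at the first, 5 at the second and 3 at the third position. Among the 106 coding cytosines not listed these numbers were 29, 27 and 50. Every cytosine of the stretch was listed, so the codon positions of the sites are those of its sequence, and nothing is read from the contrast. The 6 sites of Hbb-bt all lay in the 5′ untranslated region, between 51 and 20 nt upstream of the start codon, and left the other 6 cytosines of that region unlisted. Of all mRNA sites of OGD/R 3 h, 711 of 8280 (8.59%) lay as close to the start of a transcript as the haemoglobin sites, that is within 96 nt.

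The score of a site, which grows with its coverage and its level together and is capped at 1000, was 1000 at every haemoglobin site in every OGD/R 3 h library. This held for all 25 sites of Hbb-bs and all 6 of Hbb-bt in replicates 1, 2 and 3, so the sites cannot be ranked among themselves and no spread between libraries can be given. In OGD/R 3 h libraries, mRNA sites had a median score of 11 to 13, and 3.47% to 3.84% of them were at the cap. In control libraries 1.54% to 1.66% of the mRNA sites were at the cap, and in OGD/R 1.5 h libraries 1.39% to 1.65%.

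The haemoglobin sites made up a large part of the sites with the highest score. Of the 8280 mRNA sites in the union of the OGD/R 3 h libraries, 2563 (31.0%) were called in all 3 libraries, and 163 (1.97%) had a score of 1000 in all 3. The 31 haemoglobin sites were 19.0% of these 163, which lay in 19 of the 1450 genes with a site in OGD/R 3 h. By the number of such sites, Hbb-bs with 25 ranked 2 and Hbb-bt with 6 ranked 8, together with 2 other genes. Only Lars2, a mitochondrial leucyl-tRNA synthetase named after its values were seen, had more than Hbb-bs, with 38.

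Hbb-bs also stood high by the density of its sites. Its share of listed cytosines, 15.6%, ranked 6 among the 1450 genes, whose median was 0.388%, and its 25 successive cytosines called in all 3 libraries ranked 2, together with Tmsb4x (thymosin beta 4) and after Lars2 with 30. These 2 genes were also named after their values were seen. By its number of sites alone Hbb-bs ranked 50. Hbb-bt ranked 65 by the share of listed cytosines and 338 by the number of sites, and its run of 6 ranked 20 among runs called in all 3 libraries.

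**Figure D2:**
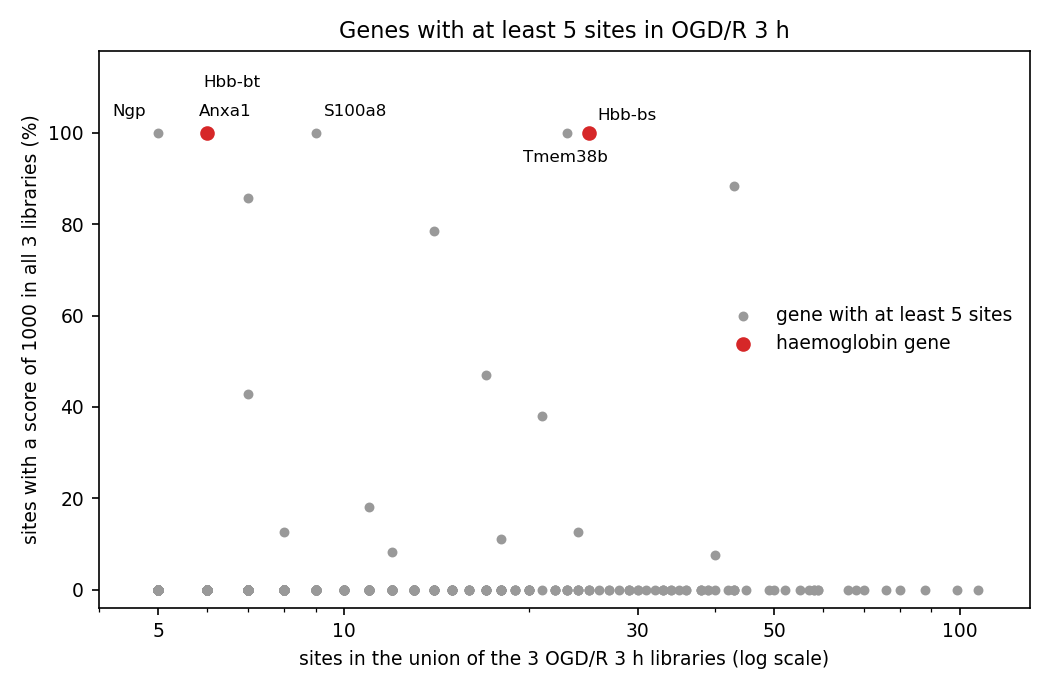
Genes with at least 5 sites in OGD/R 3 h, by the number of their sites in the union of the 3 libraries (x axis, log scale) and by the percentage of these sites with a score of 1000 in all 3 libraries (y axis). Grey points are genes and red points are Hbb-bs and Hbb-bt; Anxa1 and Hbb-bt share a point at 6 sites. Of 479 genes, 6 lie at 100% and are named.

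Among the 479 genes with at least 5 sites in OGD/R 3 h, all sites were called in all 3 libraries in 22 (4.59%), and all had a score of 1000 in all 3 libraries in 6 (1.25%). Besides Hbb-bs and Hbb-bt these were Anxa1 with 6 sites, Ngp with 5, S100a8 with 9 and Tmem38b with 23. Anxa1 encodes annexin A1, Ngp a granule protein of neutrophils, S100a8 a calcium-binding protein of neutrophils and other myeloid cells, and Tmem38b an ion channel of the endoplasmic reticulum. Hbb-bs, Hbb-bt, Anxa1, Ngp and S100a8 had 0 sites in both other groups, while control held 17 sites of Tmem38b and OGD/R 1.5 h held 18. Anxa1 and Tmem38b were named after their values were seen.

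The stretches of these genes resembled those of the beta-globin mRNAs in being without gaps. In Anxa1 all 6 cytosines from 3 to 24 nt after the transcript start were listed, in Ngp all 5 from 53 to 75 nt, and in S100a8 all 9 from 45 to 79 nt. In Tmem38b all 23 cytosines from 1518 to 1612 nt were listed, far from the start. Of the 479 genes, 14 (2.92%) had all their sites in 1 run of successive cytosines.

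Outside the haemoglobin genes, the 5 genes with 0 sites in control, at least 5 in OGD/R 3 h and the highest share of listed cytosines were S100a8, Rplp1, S100a9, Rabggtb and ND2. S100a8, at 10.8%, and S100a9, its partner in a heterodimer, at 6.14%, had 9 and 7 sites, all called in all 3 libraries, and at the cap in all 3 libraries these were 9 and 6. Rplp1, a protein of the ribosomal stalk, had 6.25% and 8 sites, of which 0 were called in all 3 libraries. Rabggtb, a subunit of the enzyme that attaches lipids to Rab proteins, had 4.86% and 14 sites, and also 11 sites in OGD/R 1.5 h. ND2, a mitochondrial subunit of respiratory complex I, had 3.82% and 11 sites, and also 1 site in OGD/R 1.5 h. S100a8, S100a9 and Rabggtb shared with the beta-globin genes a stretch in which every cytosine was listed, while in Rplp1 and ND2 8 of 11 and 11 of 15 cytosines of the span were listed.

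The paralogs were then compared base by base. Over 629 aligned positions the transcripts of Hbb-bs and Hbb-bt were 92.5% identical, and 9 positions of the 5′ untranslated region of Hbb-bs but only 2 of the 444 positions of the coding sequence differed. From base 40 of Hbb-bs and base 41 of Hbb-bt the transcripts were identical over 430 nt, across the start codon, the rest of exon 1, all of exon 2 and into exon 3. Before this stretch 10 of 11 cytosines of Hbb-bs and 6 of 8 of Hbb-bt were listed. Inside it, 15 of 110 cytosines were listed in Hbb-bs and 0 of the same 110 in Hbb-bt. The 15 were the first 15 cytosines of the identical stretch, within its first 57 nt, and the 95 after them were not listed in either copy. With cytosine read as thymine, as after conversion, the identical stretch was longer, 462 nt from base 34 of Hbb-bs and base 35 of Hbb-bt, and held 19 of the 25 sites of Hbb-bs and 1 of the 6 sites of Hbb-bt.

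**Figure D3:**
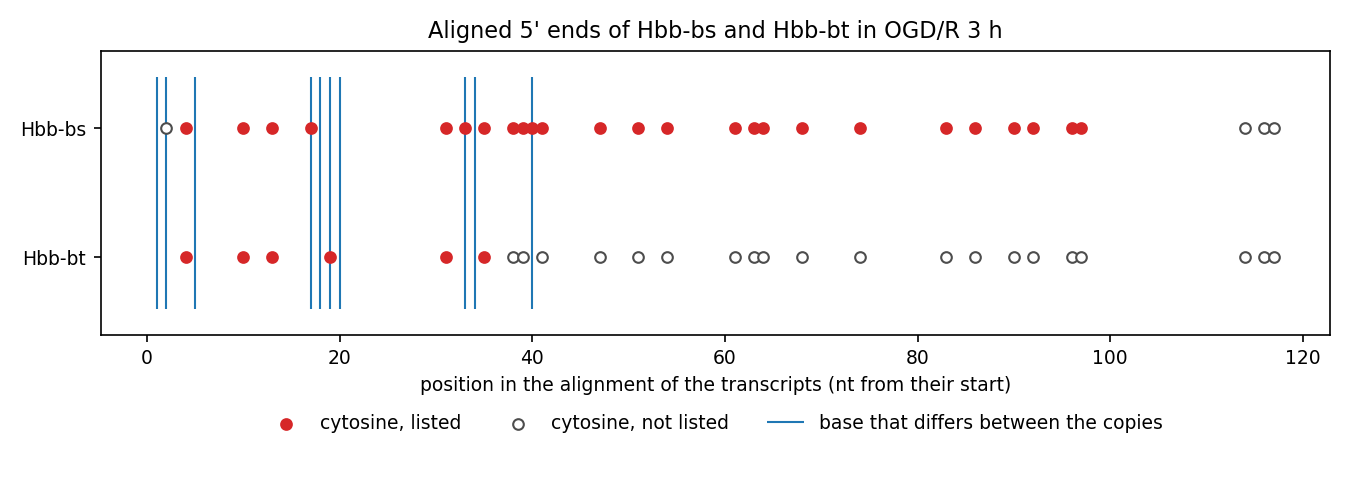
Aligned 5′ ends of Hbb-bs and Hbb-bt in OGD/R 3 h, by position in the alignment in nt. Filled red circles are listed cytosines, open circles are cytosines not listed, and blue lines mark bases that differ between the copies. To the right of the last blue line 15 cytosines are listed in Hbb-bs and 0 in Hbb-bt.

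Cytosines at the same aligned position were listed in both copies at 5 positions, all in the 5′ untranslated region. Of the 25 sites of Hbb-bs, 22 had a cytosine at the aligned base of Hbb-bt, and at 17 of these the Hbb-bt cytosine was not listed, 15 of them in the identical stretch and 2 before it. The other 3 sites of Hbb-bs, and 1 of the 6 sites of Hbb-bt, lay where the other copy has a different base. The plot of the aligned 5′ ends shows these positions. Listed cytosines of Hbb-bt lay at most 5 nt from a base that differs between the copies, with a median of 1.5 nt, and those of Hbb-bs at most 57 nt, with a median of 11 nt. With cytosine read as thymine, the largest distance was 5 nt and 63 nt. With every cytosine read as thymine, a read wholly inside the 462 nt stretch cannot be assigned to either copy by its sequence. A read that also covers a base that differs with cytosine read as thymine can. An unconverted cytosine can also differ between the copies inside this stretch. Base 39 of Hbb-bs, a listed site where Hbb-bt has no cytosine, is such a place. The files do not show which reads lay behind the sites, and the part of read assignment in the difference between the copies was not tested.

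The alpha transcripts differed even less. Hba-a1 and Hba-a2 were 99.8% identical over 556 aligned positions, with 1 differing base in the coding sequence and 0 in the 5′ untranslated region, and with cytosine read as thymine they were identical over 555 nt. How reads with several equally good places were treated is not given in the sources used here, and the effect of the near identity on the absence of alpha sites was not tested.

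Listed cytosines were also compared with the other cytosines of the same transcripts by their sequence context. Of the 25 sites of Hbb-bs, 0 were followed by G (CG), 10 (40.0%) were CHG and 15 (60.0%) were CHH, where H is any base but G. Among its 135 unlisted cytosines these shares were 5.19%, 26.7% and 68.1%. In Hbb-bt 1 of 6 sites was CG, 2 were CHG and 3 were CHH. Over all mRNA sites of the OGD/R 3 h union, CG made up 19.6%, CHG 37.0% and CHH 43.4%. A G within the next 3 bases followed 14 of 25 sites (56.0%) of Hbb-bs, 49.6% of its unlisted cytosines and 72.0% of all mRNA sites of OGD/R 3 h. Since every cytosine of the stretch was listed, these shares are those of the sequence of the stretch.

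In the minimum free energy fold predicted from the whole transcript, 13 of the 25 sites of Hbb-bs (52.0%) and 2 of the 6 sites of Hbb-bt were paired. Of the unlisted cytosines, 91 of 135 (67.4%) in Hbb-bs and 102 of 147 (69.4%) in Hbb-bt were paired. Every cytosine of the 2 stretches was listed, whether paired or unpaired in the predicted fold. The paired shares of the sites therefore follow from where the stretches lie, and nothing is read from the contrast. The fold is a prediction and was not measured in these samples.

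The neighbouring globin genes gave no site. Across the beta-globin cluster, 40684 nt from Hbb-bt to the embryonic gene Hbb-y, each OGD/R 3 h library listed 31 sites on either strand, all 31 of them in exons of Hbb-bs and Hbb-bt, and the control and OGD/R 1.5 h libraries listed 0. Hbb-bh1, which encodes an embryonic beta-like chain, and Hbb-bh2 and Hbb-y had 0 sites in all groups. Across the alpha-globin cluster, 24274 nt from the embryonic gene Hba-x to Hbq1a, all 9 libraries listed 0 sites, and Hba-x, Hbq1a and Hbq1b had none. Hbb-bh3 was not among the annotated protein-coding genes.

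Genes of erythroid cells were counted with the haemoglobin genes on a list of 47, of which 46 were annotated. A site was carried by 5 of them in control (10.9%), 4 in OGD/R 1.5 h (8.70%) and 6 in OGD/R 3 h (13.0%), beside 8.62%, 8.31% and 6.90% of all annotated protein-coding genes. Without the 4 haemoglobin genes the counts were 5, 4 and 4 of 42 genes. Alas2, which makes the first step of haem synthesis in red cells, Slc4a1 (band 3), Gata1 and Klf1 carried no site in any library. These genes of the list were named after their values were seen. With so few genes, the absence of sites is near the shares of all annotated genes given above. A count of sites does not measure expression or the source of the RNA, so nothing is read from this absence. 

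Among the other genes of the list, Tfrc, the transferrin receptor through which cells take up iron, had 4 sites in each OGD/R 3 h library, 1 in each control library and 2 in the union of OGD/R 1.5 h. Glrx5, a mitochondrial protein of iron-sulphur cluster assembly, had 4 sites in the control union, 2 in OGD/R 1.5 h and 0 in OGD/R 3 h. Mkrn1 had 3, 1 and 1 sites and Tmem14c, a mitochondrial carrier of haem precursors, 1, 0 and 1. Car2, a carbonic anhydrase, had 1 site in control alone, Bpgm, which makes the regulator of oxygen binding 2,3-bisphosphoglycerate, 2 in OGD/R 1.5 h alone, and Prdx2, an antioxidant protein of red cells, 1 in OGD/R 3 h replicate 1 alone. Most of these genes are used by many cell types besides erythroid cells.

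Markers of other cell types were counted in the same way. Of 17 neuron markers, among them Tubb3, Map2, Rbfox3 and Snap25, 0 carried a site in any of the 9 libraries, beside the 8.62%, 8.31% and 6.90% of all annotated genes given above. With so few genes on the list, 0 is near these shares. Counts of sites do not measure expression or which cells the RNA came from. Of 12 neutrophil markers, 3 (25.0%) carried a site in OGD/R 3 h, beside 6.90% of all annotated genes, and 0 in either other group, where 0 of 12 is near the 8.62% and 8.31% of all genes. The 3 were Ngp, S100a8 and S100a9 with 5, 9 and 7 sites in each OGD/R 3 h library. The list was written with earlier results of these data known, so nothing is read from the difference between 25.0% and 6.90%. Ltf, Camp, Elane and Mpo had no site. These neutrophil genes were present in the same libraries as the beta-globin sites, and the part of other cell types in the presence of the haemoglobin sites was not tested.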

How the data were processed

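The deposited files of 9 bisulfite libraries were used. The 9 mock libraries, whose RNA was left unconverted, have no file of their own here. Per the study's methods and the submitters' processing notes, the authors trimmed reads with Cutadapt 1.9.3, used meRanGh for alignment to mm10 and meRanCall for the sites of each library, and kept those with a level from 0.1 and a coverage from 10. The series' design text says that mock data entered the files, without saying how. The deposited value per site is a score, which is the meRanCall call score times 10 without its decimals, at most 1000. It is not scaled for depth, and neither coverage nor level can be read from it, so depth is unknown and no interval is given.

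All 25890 sites fell on a cytosine of GRCm38.p6, whose chromosomes are those of mm10. Sites were assigned to exons of curated RefSeq transcripts on their strand, with Python 3.11.15. Transcripts were aligned with Biopython 1.88 (match 2, mismatch -1, gap opening -5, gap extension -0.5) and folded with RNAfold 2.7.2. Figures were drawn with matplotlib 3.10.9. Replicates were checked on coverage with a chi-square statistic, tested on simulated data. The members, marker lists and rules were chosen with earlier results of these data known. Named genes were the 4 members, the other globin genes, erythroid list genes with a site, and the 5 genes with the highest share of cytosines listed, 0 sites in control and at least 5 in OGD/R 3 h. Marker genes without a site, and Ngp, Anxa1, Tmem38b, Lars2 and Tmsb4x, were named outside this rule, after their values were seen. Alternatives were sites called in at least 2 or in all 3 libraries, a score of at least 10, the mean score, and each library left out. A score of 1000, GENCODE exons and, for the erythroid list, calls in at least 2 libraries were added after the data were seen.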

Additional observations from a re-analysis of the deposited data

How the results depend on the processing

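No paired analysis was possible because the results come from no test and the libraries of a group were counted as 1 sample. Of 25 results recomputed, 22 kept their value or stayed within 1.5 times of it under every alternative run, among them all counts, shares, runs and scores of the 4 haemoglobin genes. The erythroid list moved, from 5 genes with a site in control, 4 in OGD/R 1.5 h and 6 in OGD/R 3 h. With sites called in at least 2 libraries, 2 genes had a site in OGD/R 1.5 h. With sites called in all 3 libraries, 2 had one in OGD/R 1.5 h and 3 in OGD/R 3 h. With a score of at least 10, 3 had one in control and 2 in OGD/R 1.5 h. With a score of 1000, 0 had one in control, 0 in OGD/R 1.5 h and 2 in OGD/R 3 h. These alternatives can only remove sites. Because the haemoglobin scores are all at the cap, a difference in coverage or level between these sites or libraries could not be seen. Unlisted cytosines cannot be separated into unmethylated ones, ones methylated below the level limit and ones covered too little.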
